A study of Mus musculus with 24 samples.

Results

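Fkbp5 encodes FKBP51, and it was the gene deleted from forebrain glutamatergic neurons in the mice studied here. It was found by its symbol in a table of read counts for 46983 genes, where it is 1 gene with a count in each of the 24 mice. In the GENCODE vM21 annotation of the GRCm38 mouse genome, Fkbp5 (ENSMUSG00000024222) lies on the minus strand of chromosome 17 from base 28399094 to base 28517527, and its merged exons cover 9468 bases.

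FKBP51 is a co-chaperone that sits with Hsp90 in the immature glucocorticoid receptor complex and lowers the receptor's affinity for its hormone. The activated receptor binds enhancers in Fkbp5 and raises its transcription, so that FKBP51 closes a short negative feedback loop on glucocorticoid signalling. In the hippocampus, a main site of corticosteroid feedback in the brain, it is made by neurons and by glia.

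RNA was taken from hippocampal punches of adult female C57BL/6 mice, 6 in each of 4 groups, which differed in genotype and in early life stress (ELS). All mice carried floxed Fkbp5. Fkbp5Nex mice also carried Cre recombinase under the Nex promoter, from the Neurod6 locus, which acts from embryonic life in glutamatergic neurons of the forebrain and spares the dentate gyrus, while Fkbp5lox/lox littermates without Cre served as the wild type. ELS consisted of limited bedding and nesting material for dam and litter from postnatal day 2 to day 9, and control litters had standard housing. The punches, 1 mm wide, were taken from dorsal and ventral hippocampus of frozen brains of mice that had gone through behavioural testing from 6 months of age. Dentate granule cells, interneurons, glia and vascular cells in such a punch therefore keep the gene in both genotypes by design.

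Library totals ran from 18347283 to 26555623 counts. Fkbp5 contributed 1078 to 1602 counts per mouse in Fkbp5lox/lox and 169 to 582 in Fkbp5Nex, so that counting error alone was between 2.50% and 7.69% of a mouse's value. Values are given below as CPM, the read count of a gene relative to the total of its library, scaled by the trimmed mean of M-values (TMM). Markers of forebrain glutamatergic neurons were plentiful in every punch, with Slc17a7, the vesicular glutamate transporter, at 948 to 1603 CPM in Fkbp5Nex and 1080 to 1672 CPM in Fkbp5lox/lox mice. The control Fkbp5Nex mouse numbered 12 stood apart from the other mice: it had the highest scores of all 24 for astrocyte (2.67) and microglia (2.26) markers and a low score for oligodendrocyte markers (−1.76). Several results that lean on it are also given without it.

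In control Fkbp5lox/lox mice, Fkbp5 stood at 50.2, 47.7, 57.1, 53.9, 63.4 and 49.0 CPM in mice 28, 30, 34, 44, 50 and 74. After ELS the Fkbp5lox/lox values were 58.2, 59.3, 62.2, 58.3, 62.0 and 56.4 CPM in mice 4, 8, 56, 68, 72 and 78. The wild-type mice thus lay close together, with 53.5 ± 5.95 CPM (SD, n = 6) in controls and 59.4 ± 2.29 CPM (SD, n = 6) after ELS, and the ranges of the groups overlapped.

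In control Fkbp5Nex mice, 26.5, 13.1, 8.71, 14.4, 9.97 and 12.0 CPM of Fkbp5 remained in mice 12, 32, 42, 52, 54 and 64. After ELS, 10.0, 15.7, 13.3, 23.1, 10.5 and 10.7 CPM remained in mice 10, 38, 58, 60, 62 and 66. One mouse of each rearing group was high, mouse 12 in the controls and mouse 60 after ELS, and the other 10 lay between 8.71 and 15.7 CPM. The group means were 14.1 ± 6.39 CPM (SD, n = 6) and 13.9 ± 5.0 CPM (SD, n = 6), and no Fkbp5Nex value reached the lowest Fkbp5lox/lox value of 47.7 CPM.

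**Figure D1:**
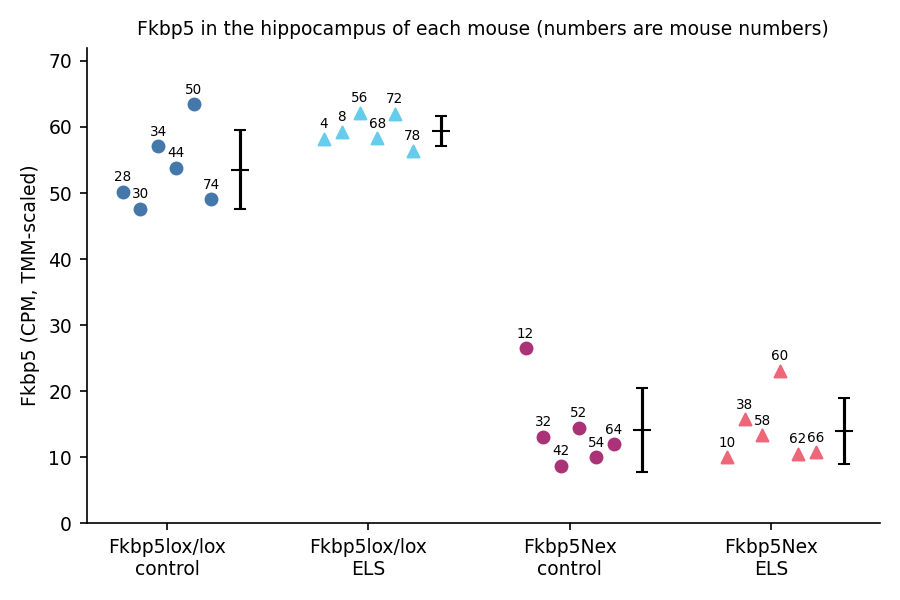
Fkbp5 in each of the 24 mice in TMM-scaled CPM (vertical axis) by group (horizontal axis), with mouse numbers at the points and the mean ± SD of the 6 mice beside them. The 12 Fkbp5Nex mice sit between 8.71 and 26.5 CPM, all below the Fkbp5lox/lox mice at 47.7 to 63.4 CPM, and mice 12 and 60 sit above the other Fkbp5Nex mice.

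Set against the Fkbp5lox/lox mean of the same rearing condition, a single Fkbp5Nex mouse kept between 16.3% (mouse 42) and 49.4% (mouse 12) of the transcript, with 38.9% in mouse 60. The ratio of the group means was 26.3% ± 5.02 (SE) in controls, 23.4% ± 3.45 (SE) after ELS and 24.8% ± 2.88 (SE) over both. Without mouse 12 the control share was 21.7%.

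The effect of genotype was read from 1 edgeR quasi-likelihood model of all 24 mice, with 5 surrogate variables and p-values adjusted by Benjamini-Hochberg over the 16209 genes tested. Fkbp5 was lower in Fkbp5Nex mice by a log2 fold change of −2.03 (SE 0.09, 95% interval −2.23 to −1.84, adjusted p = 2.81e-12), or 24.5% of the wild-type level. At a false discovery rate of 2%, 22 genes, or 0.136% of those tested, were called for genotype, 20 of them (0.123%) lower in Fkbp5Nex, and Fkbp5 had the smallest p-value. Within controls the log2 fold change was −2.05 (SE 0.13, adjusted p = 4.82e-09 in edgeR, 0.074% of genes called), and within ELS mice it was −2.01 (SE 0.13, adjusted p = 6.9e-09 in edgeR, 0.0123% called). In both Fkbp5 again had the smallest p-value. Without surrogate variables it ranked 1 by p-value within controls, and 2 within ELS mice and over both rearing conditions. The samples are separate mice, and the errors hold the spread between animals that the 5 surrogate variables leave. Without surrogate variables the SE was larger, at 0.14 over both rearing conditions, 0.20 within controls and 0.21 within ELS mice. Rearing was assigned to whole litters and the labels do not give a mouse's litter, so the errors take no account of it.

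Fkbp5 was not called for ELS in either genotype. In Fkbp5lox/lox mice the log2 fold change of ELS against control was 0.20 (SE 0.13, 95% interval −0.06 to 0.47, adjusted p = 0.946 in edgeR). That value ranged from 0.12 without control mouse 30 to 0.36 without control mouse 50 (unadjusted p = 0.00346, adjusted p = 0.686 in edgeR), and it was 0.15 with only the 12 Fkbp5lox/lox mice in the fit (unadjusted p = 0.0386, adjusted p = 0.997 in edgeR). In Fkbp5Nex mice it was 0.25 (SE 0.15, 95% interval −0.08 to 0.57, adjusted p = 0.9995 in edgeR), and it was −0.03 without surrogate variables, with the opposite sign. The difference of the ELS effects, Fkbp5lox/lox minus Fkbp5Nex, was −0.04 (SE 0.19, 95% interval −0.45 to 0.37, adjusted p = 0.999 in edgeR) and turned to 0.18 without surrogate variables. Each of the 3 contrasts called 0 genes (0%) in edgeR, and DESeq2's Wald test called 1, 0 and 0. Of the 16209 genes, edgeR gave an unadjusted p below 0.05 to 807 for ELS in Fkbp5lox/lox, 447 for ELS in Fkbp5Nex and 641 for their difference. None of these counts is larger than a cut of 0.05 would pass without any effect.

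**Figure D2:**
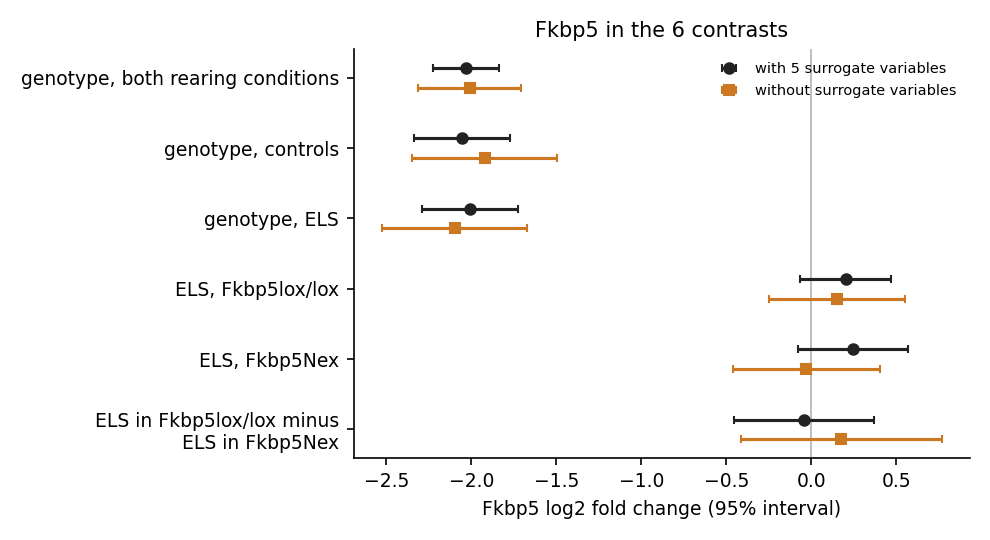
Log2 fold change of Fkbp5 (horizontal axis) in the 6 contrasts of the study, with 95% intervals, from edgeR with 5 surrogate variables (black circles) and without them (orange squares). The 3 genotype contrasts lie between −2.10 and −1.92 in both fits, and the intervals of the 3 ELS contrasts include 0 in both.

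The genes around Fkbp5 on chromosome 17 were read in the same fits. Of 57 annotated genes within 500 kb, 38 are in the table and 19 had counts high enough to test. None of the 19 (0%) was called in any of the 6 contrasts by edgeR or by DESeq2. In edgeR at most 0.136% of all genes were called in a contrast, so 0 of 19 says little about these genes. For genotype, 1 of the 19 had an unadjusted p below 0.05 in edgeR, against 1849 of all 16209 genes. The genotype log2 fold changes of the 19 ran from −0.22 to 0.15. The nearest tested genes on the lower side were Tead3 (−0.22, adjusted p = 0.570 in edgeR), Rpl10a (−0.03) and Fance (0.03), and on the higher side E230001N04Rik (0.15), Lhfpl5 (0.14) and Srpk1 (−0.01). Gm22146, a small RNA gene inside Fkbp5, was the only overlapping gene in the table and had 2 reads over all 24 mice. Neurod6, whose locus carries Cre, fell in Fkbp5Nex mice by 0.90 on the log2 scale (SE 0.15, adjusted p = 0.00939 in edgeR), from 257 ± 64.6 CPM (SD, n = 12) to 142 ± 47.0 CPM (SD, n = 12), and without surrogate variables it fell by 0.86 and was not called (adjusted p = 0.171).

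The Fkbp5Nex mice differed from each other more, in proportion, than the wild types did. Within groups, log2 Fkbp5 deviated from the group median by 0.361 on average in Fkbp5Nex mice and by 0.0824 in Fkbp5lox/lox mice, a difference of 0.279 (two-sided permutation test, 12 against 12 mice, p = 0.00128). Without mouse 12 the difference was 0.208 (permutation p = 0.0025). The within-group SD of log2 Fkbp5 was 4.38 times as large in Fkbp5Nex mice, a ratio that 6 of the 16209 tested genes (0.0370%) exceeded, where the median gene had a ratio of 1.14. That ratio was not recomputed without mouse 12. In CPM the mean deviation was 3.68 CPM in Fkbp5Nex and 3.17 CPM in Fkbp5lox/lox mice, with a difference of 0.512 CPM that did not pass (permutation p = 0.777).

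What the remaining transcript varied with was asked by setting log2 Fkbp5 of the 12 Fkbp5Nex mice against scores of 16 gene lists, each score being the mean over the list of the standardised log2 CPM of its genes, and both taken as deviations from group means. In 6 of the 16 lists the correlation passed an adjusted p of 0.05, with Benjamini-Hochberg adjustment over the lists. Fkbp5 was higher in mice with higher levels of dentate granule cell, microglia, astrocyte and vascular markers, and lower in mice with higher levels of oligodendrocyte and choroid plexus markers. In bulk tissue, a larger number of cells of a type in the punch and more RNA of its markers per cell cannot be told apart.

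Dentate granule cells, which Nex-Cre spares as it does interneurons, glia and vascular cells, gave one of the closest relations. Pearson's r between Fkbp5 and their score was 0.909 over the 12 Fkbp5Nex mice (permutation p = 0.00118, adjusted p = 0.00472), and Spearman's rho was 0.713 (adjusted permutation p = 0.0559). It was 0.898 in the 6 controls (exact permutation p = 0.0444) and 0.933 in the 6 ELS mice (exact permutation p = 0.0333). Without mouse 12 alone r was 0.827 (adjusted permutation p = 0.0234). The relation leaned on mice 12 and 60, which had scores of 0.986 and 0.671 where the other 10 ran from −1.36 to −0.221: without both, r was 0.624 (permutation p = 0.0805) and no longer passed, so that the relation rests on those mice.

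Of the 10 dentate genes, 9 correlated positively with Fkbp5 in Fkbp5Nex mice, with a median r of 0.904 over the list, against a median of 0.0121 over all tested genes. Prox1, the transcription factor that specifies granule cells, had an r of 0.925: it stood at 196 CPM in mouse 12 and 128 CPM in mouse 60 and reached at most 73.9 CPM in the other 10. Dsp, which encodes desmoplakin, had a lower r of 0.546. Glis3, a zinc finger factor of the list, had an r of 0.938 and stood at 53.0 and 32.1 CPM in mice 12 and 60 against at most 17.8 CPM in the others. Il16 went the other way (r = −0.686) and is named after its value was seen. Summed over the list, dentate markers took 129 to 605 CPM in Fkbp5Nex mice and 204 to 857 CPM in Fkbp5lox/lox mice.

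**Figure D3:**
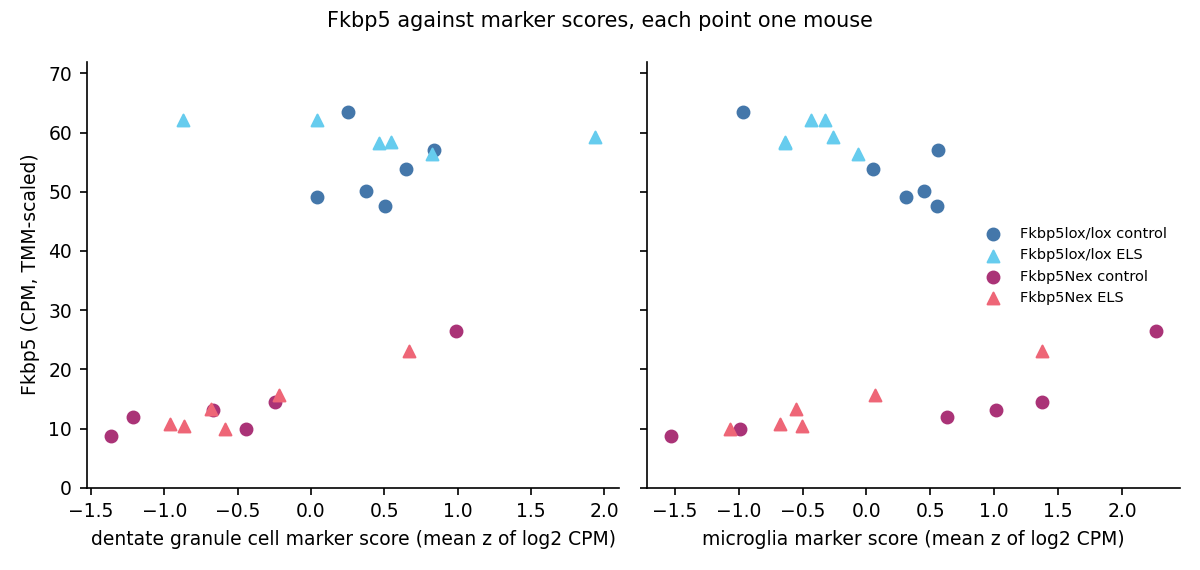
Fkbp5 in TMM-scaled CPM (vertical axis) against the dentate granule cell score (left) and the microglia score (right), each the mean standardised log2 CPM over 10 genes, with 1 point per mouse. In the 12 Fkbp5Nex mice Fkbp5 was higher where either score was higher (r = 0.909 and 0.914 on log2 Fkbp5 within groups), while the Fkbp5lox/lox mice gave −0.131 and −0.700.

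Microglia markers followed Fkbp5 as closely. Over the 12 Fkbp5Nex mice r was 0.914 (permutation p = 1e-05, the smallest that 100000 resamples can give, adjusted p = 0.00016) and rho was 0.909. Without mice 12 and 60 it was still 0.866 (permutation p = 0.00036), and it was 0.907 in the controls and 0.961 in the ELS mice alone (exact permutation p = 0.00278 and 0.0111). All 10 genes of the list had a positive r, with a median of 0.868. Csf1r, the receptor on which microglia depend for survival, had an r of 0.933 and stood at 135 CPM in mouse 12, 109 CPM in mouse 60 and 69.0 CPM in mouse 42, the mouse with least Fkbp5. Cx3cr1, the fractalkine receptor, had an r of 0.918, and the complement gene C1qa one of 0.831. The summed level of the list ran from 295 to 609 CPM in Fkbp5Nex and from 322 to 427 CPM in Fkbp5lox/lox mice.

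Astrocyte and vascular markers moved in the same direction. The astrocyte score had an r of 0.887 with Fkbp5 (permutation p = 0.00035, adjusted p = 0.00256) and 0.741 without mice 12 and 10, the mice farthest from the median (permutation p = 0.0135), and all 9 tested genes were positive. It was 0.980 in the controls and 0.734 in the ELS mice (exact permutation p = 0.00278 and 0.0833). Without mouse 12 alone it was 0.785 (adjusted permutation p = 0.0234). Slc1a2 and Slc1a3, the glial glutamate transporters, had an r of 0.787 and 0.808, and Gfap, the intermediate filament of astrocytes, 0.812. The endothelial and mural score had an r of 0.854 (permutation p = 0.00239, adjusted p = 0.00765), but 0.685 (permutation p = 0.0799) without mice 12 and 42, so that it rests on those mice, with 0.976 in the controls and 0.651 in the ELS mice (exact permutation p = 0.00556 and 0.203). Of its 10 genes 9 were positive, among them Vtn (0.821) and Itm2a (0.879), while Rgs5, a pericyte gene, had an r of −0.017.

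Oligodendrocyte and choroid plexus markers correlated negatively with the remaining Fkbp5. The oligodendrocyte score had an r of −0.866 (permutation p = 0.00048, adjusted p = 0.00256), and −0.713 without mice 12 and 42 (permutation p = 0.0124). It was −0.944 in the controls and −0.753 in the ELS mice (exact permutation p = 0.00278 and 0.075). Without mouse 12 alone it was −0.758 (adjusted permutation p = 0.0234). None of the 10 oligodendrocyte genes was positive. The myelin genes Mbp and Mobp had an r of −0.885 and −0.876, and Mbp stood at 599 CPM in mouse 12, 874 CPM in mouse 60 and 2686 CPM in mouse 42. For the choroid plexus score, with 6 of 10 listed genes tested, r was −0.784 (permutation p = 0.00624, adjusted p = 0.0166) and −0.757 without mice 42 and 62 (permutation p = 0.0339), with −0.818 in the controls and −0.731 in the ELS mice (exact permutation p = 0.00278 and 0.0611). The call was lost without mouse 42 alone (adjusted permutation p = 0.0547) and without mouse 54 alone (adjusted permutation p = 0.0598). Ttr, transthyretin, the leading secreted product of the choroid plexus, was at 0.227 CPM in mouse 12, 3.42 CPM in mouse 60 and 3132 CPM in mouse 42.

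The 6 scores moved together across the Fkbp5Nex mice, so that their parts in the Fkbp5 level cannot be told apart. The dentate score correlated with the microglia score at 0.770, with the astrocyte score at 0.793 and with the oligodendrocyte score at −0.872, and the microglia and astrocyte scores correlated at 0.909. In a linear fit of Fkbp5 CPM within groups, the dentate score alone accounted for 85.7% of the variance among the 12 mice and the microglia score alone for 75.5%. With both in the fit, which was chosen after seeing the data, 91.7% was accounted for, with slopes of 4.93 ± 1.25 (SE) CPM per unit of the dentate score and 1.85 ± 0.77 (SE) CPM per unit of the microglia score on 8 residual degrees of freedom. Without mouse 12 the shares were 72.1%, 71.1% and 86.1%, and the slopes in the fit with both were 3.78 ± 1.37 (SE) and 1.88 ± 0.71 (SE) CPM.

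The other 10 lists did not pass, and those of the steroid receptor complex and of glucocorticoid targets are described further below. Pyramidal neuron markers of CA1 (r = 0.527, adjusted permutation p = 0.162) and of CA2 and CA3 (−0.529, adjusted permutation p = 0.162), interneuron markers (−0.277) and general glutamatergic neuron markers (0.031) were among them, as were the oligodendrocyte precursor list (0.617, adjusted permutation p = 0.0837) and the markers of thalamus (−0.525) and of ventral hippocampus (−0.438). Neurod6 by itself had an r of −0.113. A p above the threshold in 12 mice does not show that these lists were unrelated to Fkbp5.

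**Figure D4:**
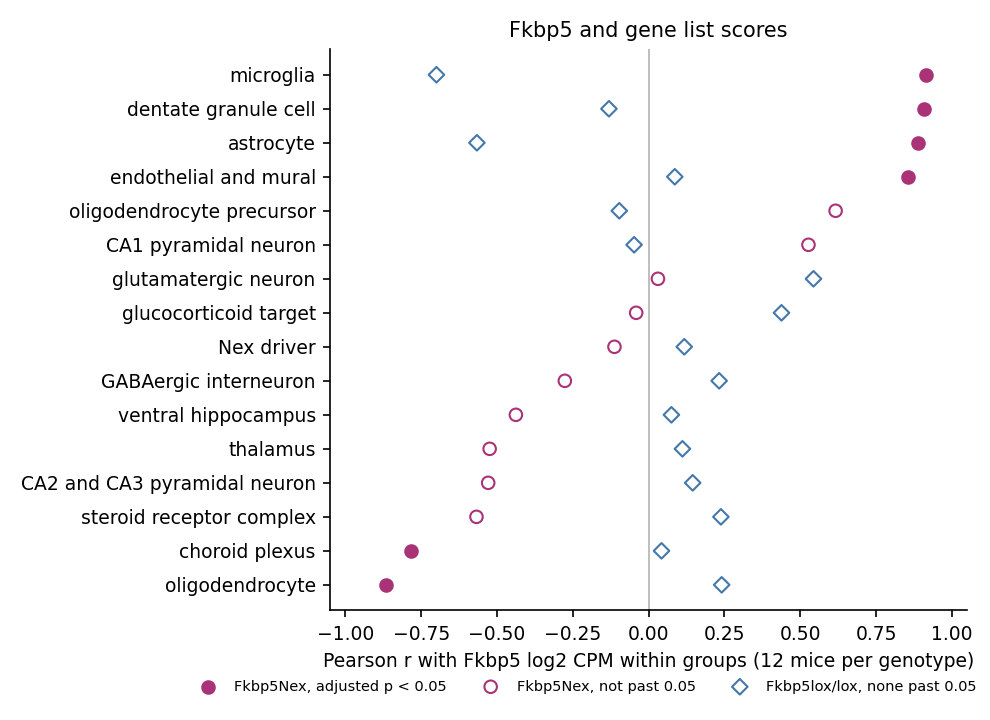
Pearson's r of log2 Fkbp5 with the score of each of the 16 lists (vertical axis), as deviations from group means, in the 12 Fkbp5Nex mice (circles, filled where the permutation p adjusted over the 16 lists is below 0.05) and the 12 Fkbp5lox/lox mice (open diamonds). In Fkbp5Nex mice 6 circles are filled, from −0.866 for oligodendrocyte to 0.914 for microglia, and in Fkbp5lox/lox mice none passed.

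In the Fkbp5lox/lox mice, none of the 16 lists passed by the permutation test, with 0 at an unadjusted p below 0.05. There, r was −0.131 with the dentate score, −0.700 with the microglia score (permutation p = 0.0586, adjusted p = 0.477), −0.566 with the astrocyte score and 0.241 with the oligodendrocyte score. The microglia value leaned on control mouse 50, which had the most Fkbp5 and the lowest microglia score of the wild types: without it r was −0.129, and the astrocyte and oligodendrocyte values turned to 0.095 and −0.043.

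Whether the relation differed between genotypes was tested over all genes with edgeR, with 1 slope on each score per genotype and no surrogate variables. Per unit of the dentate score, Fkbp5 rose by 0.64 on the log2 scale in Fkbp5Nex mice (SE 0.07, adjusted p = 2.61e-06), where 1191 genes, or 7.35% of those tested, were called, and changed by −0.02 in Fkbp5lox/lox mice (SE 0.07, adjusted p = 0.925, 1.49% called). The difference of the slopes was 0.66 (SE 0.10, adjusted p = 0.015 in edgeR). Fkbp5 was the only gene of 16209 (0.00617%) called for that difference. The call held in 8 of the 24 fits that left out 1 mouse and was lost without mouse 12 (0.60, adjusted p = 0.150).

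For the other scores the difference of slopes did not pass a false discovery rate of 2%. Fkbp5 had a slope of 0.41 on the microglia score in Fkbp5Nex mice (SE 0.04, adjusted p = 2.45e-06 in edgeR, 6.16% of genes called) and of −0.18 in Fkbp5lox/lox mice, and the difference of 0.59 (SE 0.11) had an adjusted p of 0.307 in edgeR. On the astrocyte score the slope was 0.45 in Fkbp5Nex mice (SE 0.05, adjusted p = 1.82e-05 in edgeR, 7.3% called), with a difference of 0.61 (adjusted p = 0.963 in edgeR). On the oligodendrocyte score the slope was −0.45 (SE 0.06, adjusted p = 1.78e-05 in edgeR, 10.1% called), with a difference of −0.48 (adjusted p = 0.0508 in edgeR). In each of these 3 tests of a difference Fkbp5 had the smallest p-value of all genes. The slope on the endothelial and mural score was 0.51 in Fkbp5Nex mice (adjusted p = 0.000565 in edgeR, 3.63% called), and 0.38 without mouse 12, where it no longer passed (adjusted p = 0.0584). The slope on the choroid plexus score was −0.44 (adjusted p = 0.0013 in edgeR, 3.99% called).

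**Figure D5:**
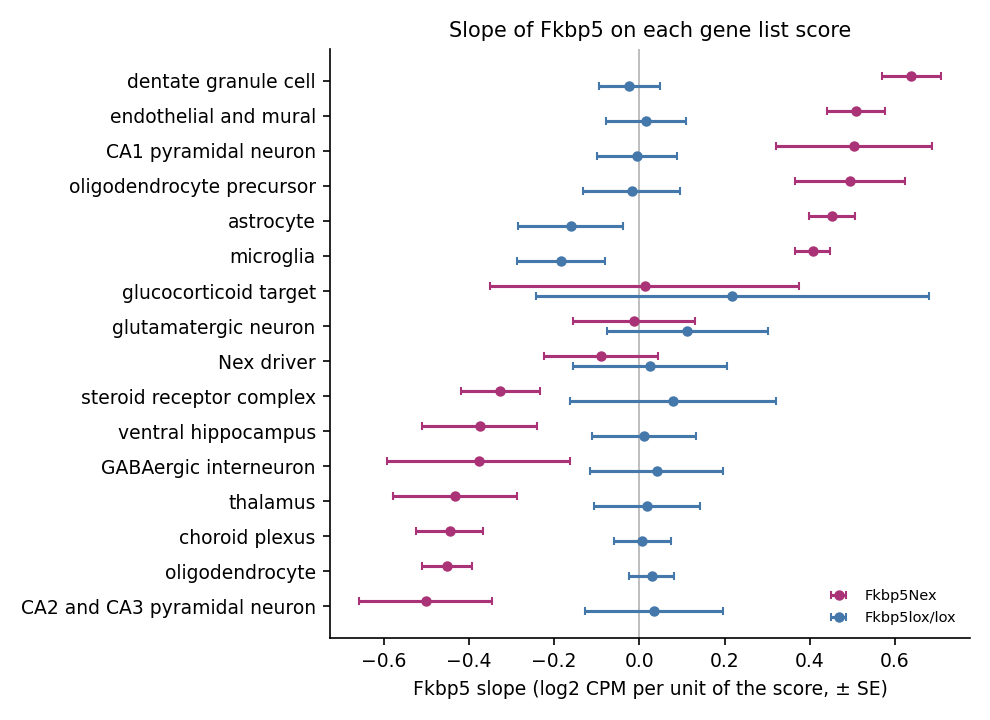
Slope of log2 Fkbp5 on the score of each of the 16 lists (horizontal axis, log2 CPM per unit of the score) with its SE from edgeR, for 12 Fkbp5Nex and 12 Fkbp5lox/lox mice. On the dentate score the slope was 0.64 in Fkbp5Nex mice and −0.02 in Fkbp5lox/lox mice.

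Log2 slopes weigh a given number of transcripts more where the level is low, so the slopes were also taken in CPM. Fkbp5 rose by 7.25 ± 0.99 (SE) CPM per unit of the dentate score in Fkbp5Nex mice and changed by −1.01 ± 2.17 (SE) CPM in Fkbp5lox/lox mice, a difference of 8.26 CPM (95% interval 3.25 to 13.3). Without mouse 12 the difference was 7.20 CPM (95% interval 1.80 to 12.6), and without mouse 50 it was 7.78 CPM (95% interval 3.98 to 11.6). On the microglia score the difference was 11.4 CPM per unit (95% interval 6.11 to 16.7), with a wild-type slope of −7.23 ± 2.40 (SE) CPM and an Fkbp5Nex slope of 4.18 ± 0.79 (SE) CPM. That difference rests on mouse 50: without it the wild-type slope was −1.67 ± 4.96 (SE) CPM and the difference was 5.85 CPM with an interval that included 0 (−4.75 to 16.5). The astrocyte difference of 11.4 CPM (95% interval 4.91 to 17.9) also rests on mouse 50, without which it was 4.10 CPM (95% interval −5.13 to 13.3). For the oligodendrocyte score the difference was −5.89 CPM (95% interval −9.41 to −2.37), and its interval left out 0 without mouse 12 (−8.51 to −0.82) and without mouse 50 (−7.75 to −1.72). The choroid plexus interval (−8.72 to −0.33) included 0 without mouse 12 (−7.10 to 0.487). The endothelial and mural interval (−0.769 to 10.5) included 0, and without mouse 50 it did not (1.04 to 9.57).

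The marker scores themselves were also compared between genotypes. The dentate score averaged −0.491 in Fkbp5Nex and 0.441 in Fkbp5lox/lox controls, a difference of −0.932 (exact permutation p = 0.0346, adjusted over the 16 lists 0.185), and −0.440 against 0.490 after ELS (exact permutation p = 0.0693, adjusted 0.353). None of the 16 lists passed an adjusted p of 0.05 in either rearing condition. In controls, 2 scores had smaller p-values than the dentate score. The glucocorticoid target score differed by 0.421 (exact permutation p = 0.00649, adjusted 0.0693) and Neurod6 by −1.07 (exact permutation p = 0.00866, adjusted 0.0693). After ELS these differences were 0.136 (exact permutation p = 0.535, adjusted 0.863) and −1.59 (exact permutation p = 0.00866, adjusted 0.139). In the model with surrogate variables, 3 of the 10 dentate genes and 2 of the 6 choroid plexus genes were called for genotype (0.136% of all genes). The dentate genes Prox1 (log2 fold change −0.50, adjusted p = 0.000481 in edgeR), Dsp (−1.09, adjusted p = 0.000481) and Glis3 (−0.49, adjusted p = 0.00562) and the choroid plexus genes Ttr (−3.04, adjusted p = 0.00124) and Enpp2 (−0.84, adjusted p = 0.00521) were lower in Fkbp5Nex mice. Without surrogate variables, where 0.0185% of genes were called for genotype, none of the 5 was among them. The part of these differences in the Fkbp5 result was not tested. The first surrogate variable correlated with log2 Fkbp5 at −0.953 within the Fkbp5Nex groups, while the groups explained 3.31% of it, and without surrogate variables the genotype effect on Fkbp5 was −2.01 (SE 0.14, adjusted p = 3.77e-09 in edgeR).

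The listed partners of FKBP51 were 16 tested genes of the steroid receptor complex. That complex holds the receptors, the heat shock proteins that fold them and the other co-chaperones. Of the 16, 0 (0%) were called in any of the 6 contrasts by edgeR or DESeq2. In edgeR at most 0.136% of all genes were called in a contrast, so 0 of 16 says little about these genes. For genotype, 1 of the 16 had an unadjusted p below 0.05 in edgeR, against 1849 of all 16209 genes. The genotype log2 fold changes of the 16 ran from −0.13 to 0.02, 1 above and 15 below 0, with a median of −0.03, against −0.00173 over all genes. Without surrogate variables 10 were above and 6 below 0, with a median of 0.00235, against 0.00183 over all genes. In the fit with surrogate variables, the chaperones Hspa8 (−0.01), Hsp90ab1 (−0.02), Hsp90aa1 (−0.04) and Hspa4 (−0.03) all lay within the range from −0.13 to 0.02. Both corticosteroid receptors are named after their values were seen: Nr3c1, the glucocorticoid receptor, had −0.03 (SE 0.05) and Nr3c2, the mineralocorticoid receptor, −0.13 (SE 0.04, adjusted p = 0.205 in edgeR). Across the 12 Fkbp5Nex mice the score of the list had an r of −0.568 with Fkbp5 (adjusted permutation p = 0.162). The slope of Fkbp5 on that score was −0.33 (SE 0.09, adjusted p = 0.0205 in edgeR, 9.38% of genes called), just short of the threshold. Single chaperones had an r of −0.665 (Hspa8), −0.559 (Hsp90ab1), −0.858 (Hsp90aa1) and −0.884 (Hspa4), and 3 of the 16 genes were positive.

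Fkbp5 itself belongs to the glucocorticoid target genes. Of 17 others, 0 (0%) passed in any of the 6 contrasts by edgeR or DESeq2. With at most 0.136% of all genes called in a contrast by edgeR, 0 of 17 says little about these genes. For genotype, 2 of the 17 had an unadjusted p below 0.05 in edgeR, against 1849 of all 16209 genes. The genotype log2 fold changes of the 17 ran from −0.17 to 0.25, 14 above and 3 below 0, with a median of 0.08, against −0.00173 over all genes. The mean score of the list was higher in Fkbp5Nex than in Fkbp5lox/lox controls by 0.421 (exact permutation p = 0.00649, adjusted 0.0693). After ELS it was higher by 0.136 (exact permutation p = 0.535, adjusted 0.863). The metallothioneins Mt1 and Mt2 had 0.11 and 0.20, Klf9, a transcription factor induced by the receptor, 0.02, and the kinase Sgk1 0.06. The score of the list had an r of −0.041 with Fkbp5 in Fkbp5Nex mice (adjusted permutation p = 0.928), and within it the sign differed by rearing, with 0.635 in the controls and −0.457 in the ELS mice (exact permutation p = 0.314 and 0.358). In Fkbp5lox/lox mice the pooled r of 0.438 (adjusted permutation p = 0.619) was made of 0.959 in the controls and −0.641 in the ELS mice (exact permutation p = 0.00556 and 0.200, not adjusted over the lists). The difference between rearing groups was not tested. Among single genes, Mt1 and Mt2, which astrocytes also express, had an r of 0.80 and 0.797 with Fkbp5 in Fkbp5Nex mice.

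Among 11894 genes with a mean of at least 5 CPM, those most like Fkbp5 across the 12 Fkbp5Nex mice were Steap3 (r = 0.959), A830036E02Rik (0.957), Mras (0.957), Bmp1 (0.954), Eya1 (0.951), Smad3 (0.950), Sv2c (0.947), Lacc1 (0.946), P2ry13 (0.946) and P2ry12 (0.945). P2ry12 and P2ry13 are purinergic receptors of resting microglia, and P2ry12 is on the microglia list. The most opposed were Ndrg1 (−0.959), Usp14 (−0.958), Lrpprc (−0.957), Ano4 (−0.956) and Itga3 (−0.951). Without mouse 12 the positive values ran from 0.897 (Lacc1) to 0.937 (Steap3) and the negative ones from −0.944 (Lrpprc) to −0.916 (Itga3). In the wild types the same 15 genes had an r between −0.591 and 0.494 with Fkbp5. An absolute r above 0.8 was reached by 7.37% of the 11894 genes in Fkbp5Nex mice and by 0.496% in Fkbp5lox/lox mice, within the same libraries, so that all these values share depth and punch.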

How the data were processed

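The authors deposited whole-number counts of reads per gene for 24 female mice, made from paired-end libraries aligned with HISAT2 2.0.5 and counted with featureCounts 1.5.0-p3, as the submitters' processing notes and the study's methods name them. Genome build, annotation, strand setting and the treatment of multi-mapping reads are not given in the sources used here, nor which exons of Fkbp5 are floxed. The counts sum all exons of a gene, so a truncated transcript of the deleted allele would be counted with the intact one. The position of Fkbp5 comes from GENCODE vM21, to which 46488 of 46983 gene identifiers matched.

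Groups were taken from the labels. A gene was tested if all 6 mice of some group had 10 counts or more, which left 16209. Counts were scaled by TMM and fitted in edgeR 4.0.16 (R 4.3.3) with group means and 5 surrogate variables from sva 3.50.0, and 6 contrasts were tested with quasi-likelihood at a Benjamini-Hochberg false discovery rate of 2%. Contrasts over both rearing conditions average their effects. DESeq2 1.42.0 with the same surrogate variables, no surrogate variables, other filters and scalings, and leaving out each mouse were alternatives. Log2 CPM used a prior count of 2. Marker scores were correlated with Fkbp5 on deviations from group means, with 100000 permutations within groups or all of them within one rearing group, two-sided throughout. Slopes on scores were fitted in edgeR without surrogate variables, since the first of these followed Fkbp5. Intervals on linear slopes cover 95%. The fits were also run on simulated counts with known changes. Those counts were drawn independently for each gene, so they cannot show how the fits behave under variation that many genes share. No sequence is printed.

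The 16 marker and pathway lists and the tests were chosen with earlier results of these data known. List genes named in the text are those called in a contrast of a list, or otherwise its first 4 by mean CPM; neighbours are the nearest 3 tested genes on each side and any overlapping gene; the genes most like Fkbp5 are the 10 highest and 5 lowest correlations. The samples were processed with those of another experiment up to the filtering of genes, and that experiment was not analysed here.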

Additional observations from a re-analysis of the deposited data

Results flagged for a closer look

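Fkbp5 in the control Fkbp5Nex mouse 12, at 26.5 CPM, lay farther from the other 5 mice of its group than Dixon's 95% limit allows: its gap to the next mouse was 0.677 of the group's range, above the critical 0.625 for 6 mice. Of 28 tests of this kind (7 measures in 4 groups), 2 passed, where chance passes about 1 in 20. The same mouse had a dentate score of 0.986, an astrocyte score of 2.67, a microglia score of 2.26 and an endothelial and mural score of 1.98, and the part of these in its Fkbp5 level was not tested.

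The second was the microglia score of the control Fkbp5lox/lox mouse 50, at −0.968, below the other 5 mice of its group. Fkbp5 was at 63.4 CPM in this mouse, the highest value of all 24.

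The slope of Fkbp5 on the dentate score differed between genotypes by 0.66 on the log2 scale per unit of the score, Fkbp5Nex minus Fkbp5lox/lox (edgeR test of the difference, adjusted p = 0.015). It was no longer called in 16 of the 24 fits that left out 1 mouse, where the adjusted p reached 0.153 in edgeR, and without mouse 12 it was 0.60 (adjusted p = 0.150).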

How the results depend on the processing

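Of 1167 recomputed values, 1090 stayed the same, 948 of them with 1 mouse left out and 142 under other settings. Tested values had to keep their direction and their side of the threshold. Counts of genes or lists had to stay within 1.5 times, and residual shares within the replicate spread. For single lists, only the 6 that passed in Fkbp5Nex mice, or some of these, were counted. The genotype effect on Fkbp5 stayed past the threshold in all 3 contrasts under each alternative run. Genes called for genotype numbered 22 as reported, 3 without surrogate variables and 66 with DESeq2, and 6 to 35 with 1 mouse left out. The count moved by over 1.5 times without Fkbp5Nex mouse 12 (7 genes), 38 (14) or 54 (35) and without Fkbp5lox/lox mouse 28 (10), 34 (13), 44 (8), 72 (14) or 74 (6). Within controls there were 12, and 2 without surrogate variables or with the 12 control mice alone, 7 under each other filter, 53 with DESeq2 and 2 to 14 with a mouse left out, with 3 without Fkbp5Nex mouse 12 and 3, 4 and 2 without Fkbp5lox/lox mouse 44, 74 or 8. After ELS there were 2, and 4 with DESeq2. For ELS, DESeq2 called 1 gene in Fkbp5lox/lox, and leaving out a mouse gave 0 to 1 in Fkbp5Nex (1 without Fkbp5lox/lox mouse 68).

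With a mouse left out, the ELS effect on Fkbp5 in Fkbp5lox/lox mice was 0.12 to 0.36 and was never called. The effect in Fkbp5Nex mice was −0.028 without surrogate variables and −0.023 with those 12 mice alone, and the interaction was 0.18 without surrogate variables and −0.16 to 0.14 with a mouse left out, above 0 without mouse 50, 52 or 60. The difference in spread was 0.512 CPM on the linear scale (permutation p = 0.777). The dentate slope difference lost its call in 16 of 24 fits that left out 1 mouse, with a value of 0.60 to 0.70 and an adjusted p of up to 0.153 in edgeR. The oligodendrocyte slope difference gained a call without mouse 10, 32 or 64. The choroid plexus correlation missed the threshold without mouse 42 or 54 (adjusted permutation p = 0.0547 and 0.0598). Lists past the threshold ran from 0 to 2 for the slope difference, from 5 to 7 for the slope in Fkbp5Nex mice and from 0 to 1 for the comparison of scores in controls, where 1 list passed without mouse 50 and the dentate list passed without mouse 12 (difference −1.26, adjusted exact p = 0.0346). In Fkbp5lox/lox mice, r ran from −0.680 to 0.095 for astrocyte and from −0.043 to 0.453 for oligodendrocyte markers with a mouse left out. Fits within a rearing condition, linear slopes and the joint fit of scores, also without single mice, were chosen after seeing the data. The causes of these changes were not tested. No paired analysis was possible because the labels give no litter and the groups share no mouse numbers. Fkbp5 counts of 169 to 582 limit a Fkbp5Nex mouse's value to a counting error of at most 7.69%.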
